A study of Saccharomyces cerevisiae with 9 samples.

Results

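The expression profile described here is that of a mutator line of the budding yeast Saccharomyces cerevisiae, called m8, after 6700 generations of laboratory evolution. Its RNA was set against RNA of the mutator ancestor it came from on 6 of the 9 arrays of the study, which were chosen by their sample titles. The other 3 arrays are the control: an evolved non-mutator after the same 6700 generations, set against its own non-mutator ancestor. All strains had been grown in 3 ml of rich medium (YPD) in glass tubes to an optical density of about 0.3, so every array compares cultures in growth on glucose. Each evolved strain is 1 line, and the labels do not give the mutation behind the mutator state or the other alleles of the strains. The mutator arrays fall into a first round of 3 and a repeat of 3 with the evolved RNA numbers 1, 2 and 3 in each round, and the repeat of number 2 used ancestor RNA number 1. Both arrays of a number were averaged, which gave 3 mutator replicates and 3 non-mutator replicates. Each ± below is the SD over the replicates of a strain, so for the mutator it does not show the difference between rounds.

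A mutator strain copies or repairs its DNA with less fidelity than the wild type, so that mutations collect faster along its lineage. A line kept in rich medium for many generations can lose functions that this medium does not call for, such as making amino acids that it supplies. In budding yeast the largest shared response in transcript levels runs along growth: genes that build ribosomes are high in fast growth, while genes for storage carbohydrates, heat shock proteins and stress defence are high when growth slows, with protein kinase A and the TOR kinase among the regulators in between.

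Every value is a log2 ratio of evolved strain over ancestor, centred on the median of its array, so 1 stands for a level 2-fold above the ancestor's and -1 for a level 2-fold below it. The labels put the evolved strain in the Cy5 channel and the ancestor in the Cy3 channel of every array. Evolved over ancestor is therefore the likely direction, although the deposited values do not state it, and with no dye swap a dye bias of a probe cannot be told apart from a difference between the strains. Nothing in the labels says that the numbered RNAs came from separate cultures, so the tests see only the spread among these RNAs, which may be technical, and the ancestor's own spread is left out because it was only the other channel. All adjusted p-values come from limma with the Benjamini-Hochberg method over 6866 probes tested, with 1 spread per probe shared by both strains. In simulated data this shared spread called too many unchanged probes when no 2-fold limit was set.

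The mutator differed from its ancestor far more widely than the non-mutator did. The median size of the log2 ratio was 0.45 in the mutator and 0.12 in the non-mutator. At an adjusted p under 0.05, 75.1% of the probes passed in the mutator, 37.3% as higher and 37.8% as lower, and 21.2% passed in the non-mutator. Because so many passed, a change is counted below only if it also had a size of 2-fold or more. By that rule 492 probes rose in the mutator (7.17% of those tested) and 749 fell (10.9%), 1241 in all (18.1%), against 0.714% of probes in the non-mutator. Centring lowered the mutator values by about 0.10 on the log2 scale, and without it the split was 642 higher and 648 lower. The difference between the strains passed for 63.9% of the probes, 33% with the mutator higher and 30.9% with it lower.

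The changes were lopsided at their far ends. At 4-fold or more 33 probes rose and 189 fell, at 8-fold or more 7 rose and 59 fell, and at 16-fold or more 2 rose and 17 fell. Of the 1241 changed probes, 413 were above 0 and 684 below 0 on each of the 6 arrays, and the rest lacked a value or changed sign on an array. Of the 1110 changed probes with a value on all 6 arrays, 870 reached 2-fold in the mean of each round. Mutator replicates spread more than non-mutator replicates, with a median SD of 0.128 against 0.0757, and the mutator arrays lacked 132 to 264 values each where the non-mutator arrays lacked 20 to 24. With the mutator replicates fitted alone 481 probes rose and 735 fell by 2-fold or more, and with the round as a random block 470 rose and 730 fell.

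**Figure D1:**
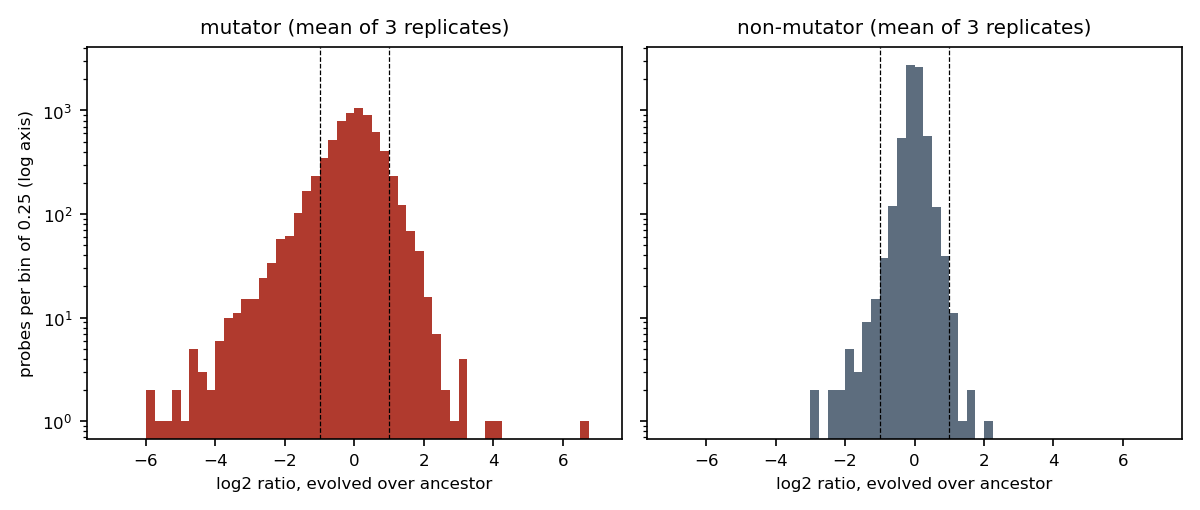
Number of probes, on a log axis, by their mean log2 ratio of evolved strain over ancestor, for the mutator (left) and the non-mutator (right), with dashed lines at a 2-fold change. The mutator values run out to -5.95 and 6.68, and the non-mutator values stay between -2.81 and 2.01.

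The gene that rose most was TRP5, which encodes tryptophan synthase, the last enzyme of tryptophan synthesis. Its log2 ratios were 6.38, 7.19 and 6.93 on the first-round mutator arrays and 5.77, 7.48 and 6.32 on the repeat arrays, against -0.01, -0.13 and -0.07 on the non-mutator arrays. The 6 mutator values lay above every non-mutator value, and the mean of 6.68 ± 0.63 (SD, n = 3) is a ratio of 102 (adjusted p = 1.5e-06). No other member of the aromatic amino acid list came near it, and TRP1, an earlier enzyme of the same branch, was at -2.71 ± 0.15 (adjusted p = 7.1e-07).

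URA3, which encodes the last enzyme of uridine monophosphate synthesis and is a common selection marker, followed with 4.45, 4.52 and 5.69 in the first round and 1.44, 4.30 and 4.61 in the repeat, against -0.17, 0.03 and 0.03 in the non-mutator. Its mean was 4.17 ± 1.12 (n = 3, adjusted p = 9.4e-05), and the repeat array of number 1 lay apart from the other mutator arrays, though still above the non-mutator.

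OAC1, the mitochondrial carrier of oxaloacetate that also carries an intermediate of leucine synthesis, was at 3.83, 3.95 and 4.06 in the first round and 3.88, 4.18 and 3.52 in the repeat, against -0.81, -0.82 and -0.75 in the non-mutator. The strains moved in opposite directions here, and the difference was 4.70 (adjusted p = 1.2e-06). LEU1, isopropylmalate isomerase of leucine synthesis, had the same form with 3.00, 3.13 and 3.29 in the first round and 3.23, 2.98 and 3.00 in the repeat, against -0.97, -0.95 and -0.96 in the non-mutator. These arrays hardly spread, and the mutator mean of 3.11 ± 0.04 differed from the non-mutator mean of -0.96 ± 0.01 by 4.07 (n = 3 each, adjusted p = 7e-07).

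BRN1, the kleisin subunit of condensin, which compacts chromosomes for division, was at 3.26, 3.44 and 3.45 in the first round and 3.03, 3.09 and 3.20 in the repeat, against 0.20, 0.67 and 0.58 in the non-mutator. PUF3, a Pumilio protein that binds messenger RNAs for mitochondrial proteins, was at 3.34, 2.98 and 3.01 in the first round and 3.51, 2.93 and 3.12 in the repeat, against 0.05, 0.38 and 0.12 in the non-mutator. In both genes every mutator array was more than 4-fold above every non-mutator array. HEM3, porphobilinogen deaminase of heme synthesis, averaged 2.75 ± 0.09 in the mutator and -0.16 ± 0.14 in the non-mutator (n = 3 each, adjusted p of the difference = 4.3e-06). BUD5, which activates the Rsr1 GTPase in bud-site selection, averaged 3.21 ± 0.77 with array values between 2.18 and 4.42, and the reference annotation has it overlapping MATALPHA2, which was at -0.16.

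The rest of the 25 highest genes averaged between 2.01 and 2.61. Ribosome assembly factors filled most of these places: RSA4 at 2.61, SSF1 at 2.46, BFR2 at 2.34, ECM1 at 2.24, DBP7 at 2.20, then SPB1, NOG1, EBP2, SOF1, CGR1, UTP9, RPF2 and LCP5 between 2.16 and 2.01. The others were SRO9, an RNA-binding protein with a La motif, at 2.42, DUS1, which makes dihydrouridine in transfer RNA, at 2.34, AQR1, an exporter of the plasma membrane, at 2.28, and YGR035C, which has no known function, at 2.01. Of the 25 highest genes, 13 were at 4-fold or more on each of the 6 arrays, and none reached 2-fold in the non-mutator. The difference between the strains passed for each of the 25 highest and the 25 lowest genes.

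**Figure D2:**
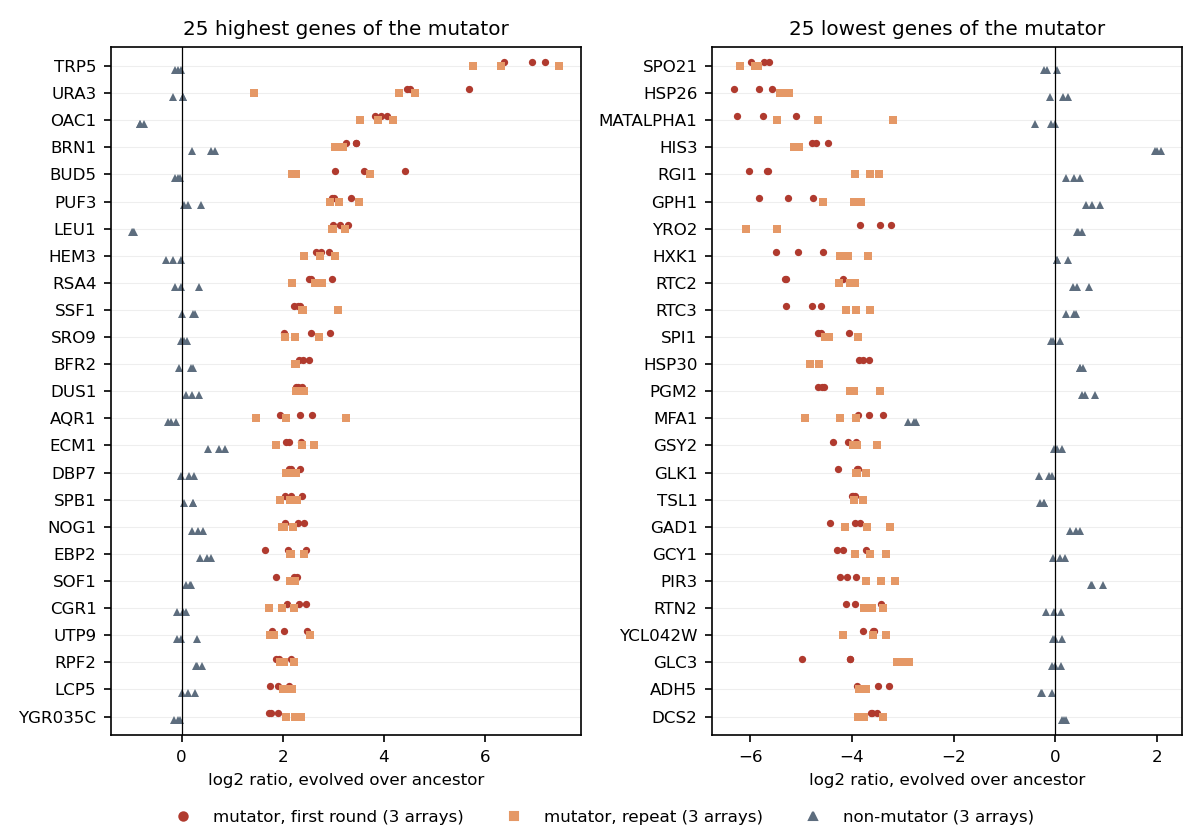
Log2 ratios of evolved strain over ancestor on each array for the 25 highest (left) and 25 lowest (right) genes of the mutator; circles are first-round mutator arrays, squares repeat mutator arrays and triangles non-mutator arrays. Apart from MFA1 and HIS3, the non-mutator triangles stay within 2-fold of 0 in both panels, while the mutator points reach 7.48 for TRP5 and -6.33 for HSP26.

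The lowest gene with values on all arrays was SPO21, which encodes a part of the spindle pole body that is made only in meiosis. Its log2 ratios were -5.99, -5.64 and -5.73 in the first round and -5.91, -6.21 and -5.85 in the repeat, against -0.22, 0.03 and -0.17 in the non-mutator. The mean of -5.89 ± 0.08 (n = 3) is a level about 59.2 times lower than the ancestor's (adjusted p = 1.1e-07), and the arrays were close together. HSP26, a small heat shock protein that holds unfolded proteins, was at -6.33, -5.58 and -5.83 in the first round and -5.35, -5.23 and -5.41 in the repeat, against 0.25, -0.10 and 0.14 in the non-mutator. EGO4, a small protein tied to the EGO complex that signals to TOR, lay as low with a mean of -5.95 ± 0.10, but 2 of its 6 mutator ratios were at the lowest deposited value and were left out.

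HIS3, an enzyme of histidine synthesis and a common marker, had the largest difference between the strains among the probes tested. It was at -4.47, -4.70 and -4.79 in the first round and -5.15, -5.04 and -5.08 in the repeat of the mutator, against 1.99, 1.97 and 2.07 in the non-mutator. The difference was -6.88 (adjusted p = 1.8e-07), with no overlap and replicate SDs of 0.06 and 0.05. MATALPHA1, the regulator that turns on the genes of alpha cells, was at -6.26, -5.11 and -5.75 in the first round and -3.19, -4.68 and -5.47 in the repeat, against -0.41, -0.02 and -0.09 in the non-mutator. All mutator values were below all non-mutator values, but the probe may not tell MATALPHA1 from its silent copy at HML. The probe named for that copy, HMLALPHA1, averaged -5.08 in the mutator and -0.12 in the non-mutator.

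The next lowest genes belonged to carbohydrate stores, glucose entry and stress. GPH1, glycogen phosphorylase, averaged -4.70 ± 0.30. HXK1, a hexokinase made when glucose is low, averaged -4.52 ± 0.17 (n = 3 each). RGI1, linked to respiratory growth, was at -6.02, -5.68 and -5.65 in the first round and -3.48, -3.65 and -3.95 in the repeat, so the rounds did not overlap, yet both were far below the non-mutator at 0.22, 0.48 and 0.37. YRO2 and HSP30, related proteins of the plasma membrane, averaged -4.59 and -4.27, and for YRO2 the repeat arrays were the lower ones (-5.47, -6.09 and -5.48, against -3.84, -3.45 and -3.23 in the first round). RTC2, a vacuolar amino acid transporter, RTC3 and SPI1, a cell wall protein, lay between -4.50 and -4.37. GAD1, glutamate decarboxylase, averaged -3.89, GCY1, a glycerol dehydrogenase, -3.86, PIR3, a wall protein, -3.76, RTN2, a reticulon, -3.71, ADH5, an alcohol dehydrogenase, -3.67, and DCS2, an inhibitor of messenger RNA cap turnover, -3.63. YCL042W at -3.67 overlaps GLK1 at -3.94 in the reference annotation, and their signals cannot be told apart by name. Of the 25 lowest genes, 24 were at 8-fold or more below the ancestor on each of the 6 arrays, and 2 reached 2-fold in the non-mutator, MFA1 at -2.81 and HIS3 at 2.01.

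Gene lists were read by how many members changed 2-fold or more and by their median, beside a median of 0.02 over all probes tested in the mutator. Each list count stands beside the shares over all probes, 37.3% passed as higher and 37.8% as lower. At 2-fold or more these shares were 7.17% higher and 10.9% lower. The listed factors that build ribosomes rose together. All 32 tested factors of large-subunit assembly passed as higher and 28 rose 2-fold or more, with a median of 1.60 and array medians between 1.42 and 1.67, against a median of 0.13 in the non-mutator. All 32 listed members of the small nucleolar particles and the small-subunit processome passed too, 26 of them at 2-fold or more. Their median was 1.39, against 0.06 in the non-mutator. Members of these lists were chosen with earlier results of these data known, so the counts do not stand for every assembly factor. Outside the lists, the small-subunit factors ENP2, HCA4 and BUD22 were at 0.18, 0.17 and -0.38 in the mutator. UTP18 at 1.91 ± 0.09, UTP15 at 1.89 ± 0.12 and LCP5 at 2.01 ± 0.10 (n = 3 each) are parts of the processome, which cuts the small-subunit rRNA out of its precursor.

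RNA polymerase I, which transcribes the ribosomal RNA genes, had 6 of 14 members higher by 2-fold or more and none lower, with a median of 0.99 against -0.01 in the non-mutator. RRN11, a part of its core factor, was at 1.81, 1.78 and 1.74 in the first round and 2.10, 2.11 and 1.82 in the repeat, against -0.38, -0.54 and -0.56 in the non-mutator. The gene thus lay above its ancestor's level on every mutator array and below it on every non-mutator array. Its subunits RPA34 and RPA12 averaged 1.60 and 1.36, and RRN3, which joins the polymerase to the promoter, averaged 1.40.

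RNA polymerase III, which makes transfer RNA and 5S rRNA, had 7 of 18 members higher by 2-fold or more with a median of 0.49, led by RPC17 at 1.67, RPC82 at 1.65, RPC53 at 1.35 and the largest subunit RPO31 at 1.27. RNA polymerase II had none of 7 at 2-fold, with a median of 0.34, and RPB2 at 0.63 ± 0.09 was its highest subunit. Enzymes that modify transfer RNA rose in 16 of 34 cases by 2-fold or more and fell in none, with a median of 0.87 against 0.06 in the non-mutator. They included DUS1, TRM44 at 1.54, TRM2 at 1.46 and GCD14, a subunit of the 1-methyladenosine methyltransferase, at 1.39. The cytosolic aminoacyl-tRNA synthetases moved less, with none of 20 at 2-fold, 17 passed as higher and a median of 0.31. ALA1 was the highest of them at 0.90.

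Genes of RNA turnover in the nucleus were mostly higher too, with 17 of 18 passed as higher. The exosome, which trims and degrades nuclear RNA, and its TRAMP helpers had 4 of 18 members at 2-fold or more, all higher: TRF5, a TRAMP poly(A) polymerase, at 1.36 ± 0.14, the helicase MTR4 at 1.33 ± 0.09, AIR1 at 1.27 ± 0.03 and the exosome subunit RRP4 at 1.05 ± 0.14 (n = 3 each). Decay of messenger RNA in the cytosol had a median of 0.33, and its decapping activators split, with EDC1 at 0.998 ± 0.14 and EDC2 at -1.12 ± 0.10. Splicing factors had a median of 0.18 and 1 of 35 at 2-fold, PRP42 of the U1 particle at -1.29. Among the nuclear transport receptors 3 of 20 rose 2-fold or more: LOS1, the exporter of transfer RNA, at 1.29, NMD5 at 1.03 and PSE1 at 1.02. Of the 6 Pumilio proteins, PUF3 and the ribosome assembly factor PUF6 (1.84 ± 0.23) rose, and JSN1 fell to -1.19 ± 0.09.

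**Figure D3:**
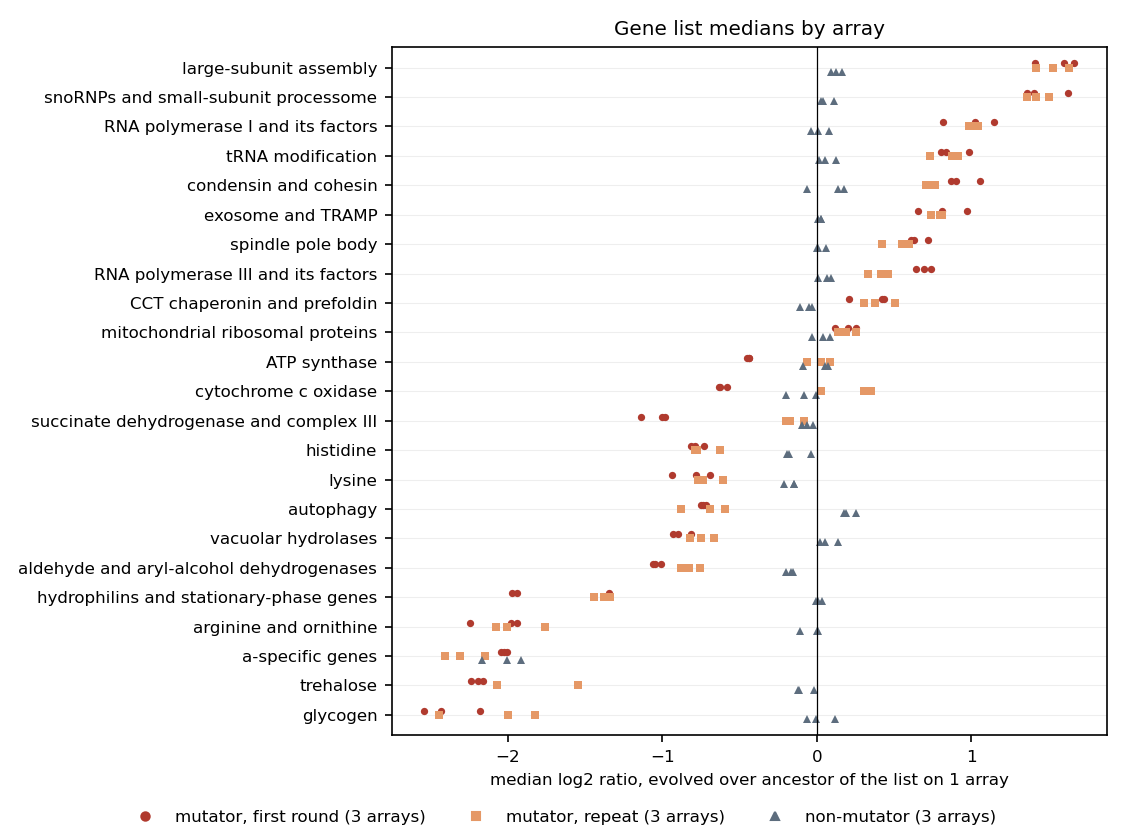
Median log2 ratio of evolved strain over ancestor of each gene list on each array; circles are first-round mutator arrays, squares repeat mutator arrays and triangles non-mutator arrays. Lists of ribosome assembly sit near 1.4 to 1.7 in the mutator and lists of trehalose, glycogen and arginine near -2, while the a-specific genes are near -2 in both strains.

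Genes of chromosome structure and division were on the higher side of 0, with smaller changes. Condensin and cohesin had a median of 0.87 against 0.10 in the non-mutator, and 3 of 14 rose 2-fold or more: BRN1 far ahead, then the cohesin subunits MCD1 and IRR1, both at 1.05. The spindle pole body had a median of 0.63, with SPC98 of the gamma-tubulin complex at 1.08 ± 0.08 as its 1 member at 2-fold. Of the kinetochore's 33 members, 21 passed as higher and 2 reached 2-fold, NNF1 at 1.02 ± 0.13 and the Aurora kinase IPL1 at 1.19 ± 0.07. IPL1 had 1 of its 6 ratios at the lowest deposited value. For the spindle pole body and the kinetochore the 2-fold counts were near the 7.17% of all probes that rose as much. KAR3, a kinesin, averaged 1.16. In the septin and bud-site list RAX2, a marker of the bud site, rose to 1.28 ± 0.08 beside BUD5. Mediator, the chromatin remodellers and SAGA, which act with RNA polymerase II, had medians of 0.17, 0.33 and 0.09, and SSN2 of Mediator at -1.08 ± 0.18 was the member of these lists past 2-fold.

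Genes that act when mother and daughter part had a median below 0 in both strains, -0.40 in the mutator and -0.31 in the non-mutator, with array medians from -0.97 to -0.10 in the mutator. CTS1, the chitinase that opens the septum, was at -2.31, -1.72 and -1.68 in the first round and -2.05, -2.20 and -2.12 in the repeat, against -0.30, -0.38 and -0.26 in the non-mutator. DSE1 averaged -1.22 and the glucanase SCW11 -1.08, so 3 of 11 members fell 2-fold or more. Of the anaphase-promoting complex only the meiotic activator AMA1 was past 2-fold, at -1.54 ± 0.60, from the first round alone, since 2 repeat arrays were at the lowest deposited value and 1 had none.

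Storage carbohydrates were the lists furthest below 0. Glycogen genes fell by 2-fold or more in 10 of 13 cases and rose in none, with a median of -2.17 and array medians between -2.54 and -1.82, against 0.04 in the non-mutator. The synthase GSY2 was at -4.38, -4.07 and -3.91 in the first round and -3.89, -3.98 and -3.51 in the repeat, against 0.04, 0.13 and -0.03 in the non-mutator. The branching enzyme GLC3 averaged -3.67 ± 0.23, phosphoglucomutase PGM2 -4.21 ± 0.17 and the primer protein GLG1 -2.17 ± 0.09 (n = 3 each). Genes that make and those that break down glycogen were thus lower together.

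Trehalose genes did the same, with 5 of 7 lower by 2-fold or more and a median of -2.15 against -0.07 in the non-mutator. TSL1, a regulatory subunit of the synthase complex, was at -3.97, -3.95 and -3.99 in the first round and -3.78, -3.96 and -3.78 in the repeat, against -0.22, -0.22 and -0.30 in the non-mutator. The catalytic subunits TPS2 and TPS1 averaged -2.34 and -2.21, the neutral trehalase NTH1 -2.15, the second regulatory subunit TPS3 -1.32 and the acid trehalase ATH1 -0.96. The repeat array of number 1 had the highest median of this list, -1.55.

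Genes known from stationary phase and drying, many of them hydrophilins, had 9 of 14 members lower by 2-fold or more, with a median of -1.62 against -0.01 in the non-mutator. HSP12, which binds membranes under stress, averaged -3.62 ± 0.23 and STF2 averaged -2.59 ± 0.22 (n = 3 each). In glycerol metabolism GCY1, the phosphatase GPP2 (-2.52 ± 0.10), the glycerol importer STL1 (-2.13 ± 0.61, from the first round alone, with all 3 repeat arrays at the lowest deposited value) and the dehydrogenase GPD1 (-1.74 ± 0.08) fell, 4 of 14 in all. Aldehyde and aryl-alcohol dehydrogenases had 6 of 11 members lower, among them ALD3 at -3.30, the mitochondrial ALD4 at -1.51 and AAD14 at -1.22. In the pentose phosphate pathway 5 of 11 fell, led by SOL4 at -3.26 and the transaldolases NQM1 at -2.35 and TAL1 at -1.11, while RKI1, ribose-5-phosphate isomerase, rose to 1.47 ± 0.10.

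Some genes of the Ras and protein kinase A pathway had changed levels too, and whether they act on the genes above was not tested. In the Ras and protein kinase A list 4 of 19 fell 2-fold or more and none rose by as much. Of the 19, 12 passed as lower and 5 as higher, with a median of -0.34 against 0.04 in the non-mutator. The kinase YAK1, which protein kinase A holds back, averaged -2.37 ± 0.12, the cyclic AMP phosphodiesterase PDE1 averaged -2.03 ± 0.05, and TPK2, a catalytic subunit of protein kinase A, averaged -1.05 ± 0.10 (n = 3 each). The TOR and EGO complexes had a median of -0.01, which turned to 0.09 without centring, and apart from EGO4 none of the 21 tested members reached 2-fold. In this list 7 passed as higher and 7 as lower, neither above the share over all probes. KOG1 of TOR complex 1 passed at 0.91 and LST8 at -0.87.

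Autophagy genes, which deliver cell contents to the vacuole, passed as lower in 27 of 31 cases, 10 of them by 2-fold or more, with a median of -0.73 against 0.19 in the non-mutator. ATG1, the kinase that starts the process, averaged -1.90 ± 0.19 and ATG8, which coats the membrane, averaged -1.69 ± 0.12 (n = 3 each). The receptor ATG19 and the vacuolar exporter ATG22 were both at -1.50. The vacuolar hydrolases followed with 5 of 10 lower by 2-fold or more. APE1, an aminopeptidase brought in by ATG19, was at -3.53, -3.18 and -3.10 in the first round and -2.53, -2.70 and -2.76 in the repeat, against 0.41, 0.32 and 0.41 in the non-mutator, with no overlap. The proteases PRB1 and PRC1 averaged -2.08 and -1.07.

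Amino acid synthesis did not move as a block. The arginine and ornithine pathway was the lowest of these lists, with all 8 tested members passed as lower, 6 of them by 2-fold or more, and a median of -2.07 against -0.04 in the non-mutator. ARG1, argininosuccinate synthetase, was at -4.17, -2.91 and -2.81 in the first round and -3.49, -3.54 and -3.08 in the repeat, against -0.78, -0.76 and -0.51 in the non-mutator. ARG4, ARG3 and ARG7 averaged -2.95, -2.40 and -2.18. Histidine genes fell in 3 of 7 cases: HIS3, HIS4 at -2.72 ± 0.26 and HIS5 at -1.05 ± 0.14, while HIS6 passed at 0.66. Lysine genes had LYS1 at -2.002 and LYS2 at -1.12 on the lower side and LYS5, whose product activates Lys2, at 1.41 ± 0.82 with array values from 0.35 to 3.19.

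The branched-chain pathway had more members higher than lower at 2-fold. Beside LEU1, BAT1, the mitochondrial aminotransferase, was at 1.94, 1.92 and 2.03 in the first round and 1.86, 1.89 and 1.88 in the repeat, against -0.51, -0.54 and -0.56 in the non-mutator. ILV5 averaged 1.88, ILV3 1.29 and the isopropylmalate synthase LEU9 1.25, so 5 of 12 rose 2-fold or more and none fell. LEU2 in the middle of the pathway was at -0.55 ± 0.10 in the mutator and -0.87 ± 0.09 in the non-mutator. The median of the list was 0.32 in the mutator and -0.43 in the non-mutator. In the threonine list none of 5 reached 2-fold. Among the genes of glutamate and proline, GDH1, the NADPH-dependent glutamate dehydrogenase, rose to 1.06 ± 0.06 and PUT1, proline oxidase, fell to -1.12 ± 0.16.

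Several genes used as markers in laboratory strains stood out one by one. ADE2, of adenine synthesis, was at -3.03, -2.87 and -2.67 in the first round and -2.72, -3.47 and -2.22 in the repeat, against 0.50, 0.53 and 0.35 in the non-mutator. MET17, which fixes sulfide into homocysteine, was at -1.88, -2.07 and -2.11 in the first round and -2.01, -2.25 and -2.27 in the repeat, against 0.18, 0.16 and 0.16 in the non-mutator. With HIS3, TRP1 and LYS2 they made 5 of 9 tested markers that fell 2-fold or more, and URA3 was the 1 that rose. CAN1, the arginine permease, passed at 0.99 ± 0.17. HO, the mating-type switching nuclease, was at 2.63, 2.85 and 2.97 in the first round and 1.65, 2.29 and 1.85 in the repeat, and it was not tested because it had no values in the non-mutator.

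Cofactor and lipid genes mostly stayed within 2-fold. The NAD list passed as lower in 10 of 14 cases (37.8% over all probes), with a median of -0.42 against -0.10 in the non-mutator. Fatty acid synthesis and elongation passed as higher in 8 of 11 (37.3% over all probes), with a median of 0.18 against -0.17. In NAD synthesis 4 of 14 fell 2-fold or more, PNC1, nicotinamidase, at -2.61 ± 0.22, BNA6 at -1.88 ± 0.09, BNA2 at -1.72 ± 0.22 and BNA1 at -1.01 ± 0.34. BNA1 was near that level in the non-mutator too at -0.88 ± 0.12. Its mutator rounds did not overlap, with -1.38, -1.73 and -1.58 in the first and 0.14, -0.63 and -0.86 in the repeat. Heme genes had a median of -0.05, which turned to 0.06 without centring, with HEM3 as the 1 member at 2-fold. Among sphingolipid genes the ceramidases YPC1 and YDC1 fell to -2.13 ± 0.19 and -1.80 ± 0.07. INO2, an activator of phospholipid synthesis genes, was at 2.20, 1.68 and 1.93 in the first round and 1.96, 1.39 and 1.73 in the repeat, against -0.14, -0.11 and -0.07 in the non-mutator, while OPI3, an enzyme of phosphatidylcholine synthesis, fell to -1.17 ± 0.04. The polyamine exporters TPO2 and TPO4 fell to -2.25 ± 0.08 and -1.41 ± 0.09, and the synthesis genes SPE1, SPE2 and SPE4 passed between 0.42 and 0.74.

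Mitochondrial genes split by function. Ribosomal proteins of the organelle had a median of 0.19 and import components 0.21, with 2 of 70 and none of 34 past 2-fold. MRPL32 at -1.33 ± 0.07 and MRP8 at -1.47 ± 0.04, both counted by their names in the ribosomal list, were the exceptions, both lower. PET309 and CBP1, which act on messenger RNAs of the mitochondrial genome, rose to 1.10 and 1.05. The 19 genes of the mitochondrial genome itself had a median of 0.73 with array medians between 0.45 and 1.08, against -0.05 in the non-mutator, and 4 of them rose 2-fold or more. For the respiratory enzymes encoded in the nucleus the level depended on the round. Succinate dehydrogenase and complex III had a median of -0.50, with array medians of -0.98, -1.14 and -1.002 in the first round and -0.08, -0.17 and -0.20 in the repeat, against -0.06, -0.03 and -0.10 in the non-mutator. ATP synthase had array medians of -0.45, -0.44 and -0.44 in the first round and 0.08, 0.03 and -0.07 in the repeat, and the repeat values overlapped the non-mutator's, from -0.09 to 0.07. In the list of succinate dehydrogenase and complex III 4 of 15 were past 2-fold in the mean of all arrays, SDH4 at -1.66, CYC7 at -1.55, SDH2 at -1.42 and SDH1 at -1.07. The inhibitor of ATP synthase STF1 fell to -2.22 ± 0.05, and no catalytic or structural member of that list reached 2-fold.

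Among the mitochondrial carriers OAC1 stood at 3.90 and PIC2, a copper and phosphate carrier, at the other end with -3.24, -3.35 and -3.30 in the first round and -3.10, -2.86 and -2.83 in the repeat, against 0.08, 0.24 and 0.12 in the non-mutator. GGC1, the carrier of guanine nucleotides, fell to -1.20 ± 0.04. None of the 17 genes of fatty acid beta-oxidation was called at 2-fold, and 1 of 25 peroxins was, PEX15 at -1.21 ± 0.10.

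At the cell surface the hexose transporters and sensors spread widely, with a median of -0.20 and array medians from -0.997 to 0.01. Of the 19 tested, 7 passed as lower and 5 as higher, neither above the shares of 37.8% and 37.3% over all probes. HXT4 was at -3.36, -2.68 and -2.54 in the first round and -2.92, -3.19 and -3.22 in the repeat, against 0.38, 0.63 and 0.41 in the non-mutator. HXT7 at -2.10 and HXT6 at -2.07, high-affinity transporters of near-identical sequence that probes may not tell apart, and HXT3 at -1.30 completed the 4 of 19 that fell 2-fold or more. Of the 20 amino acid permeases tested, TAT1, for tyrosine and branched-chain amino acids, rose to 1.83 ± 0.05, and 4 fell, MUP3 at -1.82, AGP1 at -1.58 and the general permease GAP1 at -1.52 among them. The machinery of secretion stayed near 0: the coats, the exocyst, glycosylation, entry into the endoplasmic reticulum and the vacuolar ATPase had medians between -0.09 and 0.11 and no member past 2-fold. The CCT chaperonin and prefoldin, which fold actin and tubulin, passed as higher in all 14 cases with a median of 0.39, and the prefoldin subunit PAC10 reached 1.01 ± 0.09.

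Pairs of paralogues were read for close relatives that parted. Yeast carries many pairs of genes with similar products, in which one member often serves fast growth and the other serves stress or poor carbon sources. Of 78 pairs listed, 33 differed by 1 or more in the mutator. None of those 33 did so in the non-mutator, where their largest difference was 0.80. The 33 were picked by their mutator difference and the other pairs were not examined in the non-mutator, so this does not compare the strains. The member named second, often the one known from stress or slow growth, was the lower in 25 of the 33. The pairs and the order within them were set when the list was written, with earlier results of these data known. Counts of pairs therefore describe the list and are not a result. Both members passed as lower in 15 pairs and they passed in opposite directions in 11. Probes of pairs with very similar sequences may share signal, which was not tested.

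The hexokinases parted by 4.01 ± 0.21 (n = 3), with HXK2, the enzyme of growth on glucose, at -0.51 and HXK1 at -4.52. Phosphoglucomutases parted by 3.94 ± 0.18, with PGM1 at -0.27 and PGM2 at -4.21. In pyruvate kinase CDC19 stood at -0.43 and PYK2 at -3.53, in phosphoglycerate mutase GPM1 at -0.45 and GPM2 at -2.56, and in the peroxiredoxins TSA1 at -0.55 and TSA2 at -2.89. Each of these pairs carries a main member within 2-fold of its ancestral level and a minor member several-fold below it. The chaperones SSE1 at 0.02 and SSE2 at -2.68, and SSA2 at -0.34 and SSA4 at -2.18, had the same form.

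Pairs with members on opposite sides of 0 included enzymes of nucleotide supply. CTP synthase URA7 was at 1.43, 1.59 and 1.73 in the first round and 1.58, 1.49 and 1.22 in the repeat, and its partner URA8 at -2.24, -1.87 and -1.83 in the first round and -1.63, -1.79 and -1.59 in the repeat. In the non-mutator URA7 averaged 0.18 and URA8 averaged 0.04. The large subunits of ribonucleotide reductase, which makes deoxynucleotides, were at 1.69 ± 0.08 for RNR1 and -1.10 ± 0.29 for the DNA damage-inducible RNR3 (n = 3 each). The aminotransferases BAT1 (1.92) and BAT2 (-0.27) and the proton pumps PMA1 (-0.62) and PMA2 (0.59) parted in the same way. LEU9 rose to 1.25 while LEU4, which does the same step, was at -0.52. FAA4, an acyl-CoA synthetase, rose to 1.4996 ± 0.13 while FAA1 was at -0.68 ± 0.12.

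**Figure D4:**
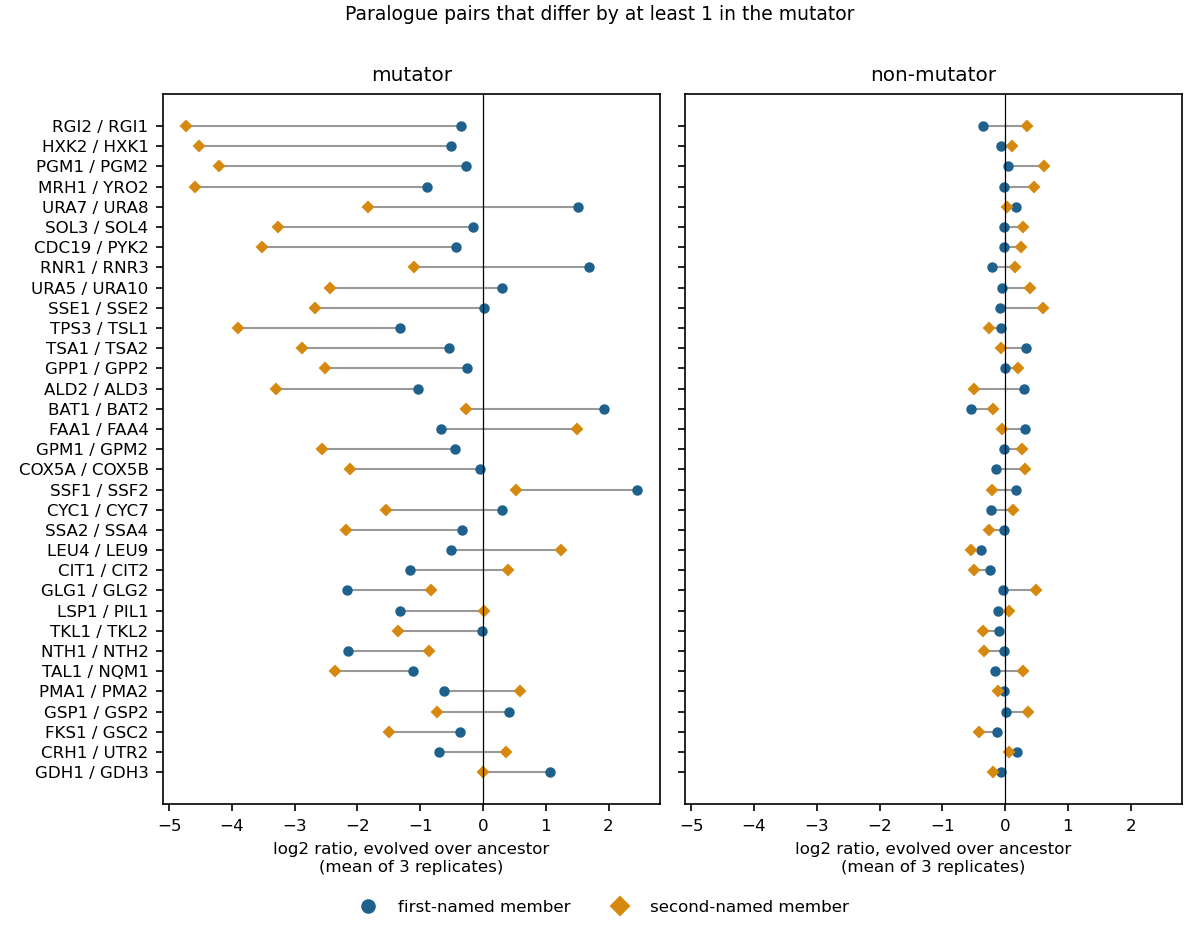
Mean log2 ratio of evolved strain over ancestor of the 33 paralogue pairs that differ by 1 or more in the mutator, ordered by that difference, for the mutator (left) and the non-mutator (right); circles are the first-named member, diamonds the second-named, and a line joins each pair. In the mutator RGI2, which did not pass (adjusted p = 0.29), and RGI1 are 4.39 ± 0.83 apart, and in the non-mutator no pair is more than 0.80 apart.

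Genes of cell type moved in both strains. In RNA of whole cultures, fewer cells of a type and less RNA per cell cannot be told apart. The a-specific genes, which a cells express for mating, had a median of -2.11 in the mutator and -2.07 in the non-mutator, with 6 of 7 lower by 2-fold or more in the mutator. MFA1, a gene of the a-factor pheromone, was at -3.88, -3.39 and -3.67 in the first round and -4.92, -4.24 and -3.92 in the repeat, against -2.91, -2.74 and -2.77 in the non-mutator. BAR1, the protease that clears alpha-factor, averaged -3.12 ± 0.23 in the mutator and -2.49 ± 0.51 in the non-mutator, and the groups overlapped. ASG7 fell in the mutator at -2.07 ± 0.36, against -0.28 ± 0.02 in the non-mutator (n = 3 each, adjusted p of the difference = 0.00023). The receptor STE2 went further in the non-mutator, at -1.06 ± 0.04 in the mutator and -2.07 ± 0.09 in the non-mutator (n = 3 each, adjusted p of the difference = 4.7e-05), and the exporter STE6 likewise at -0.89 and -1.65.

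Of the 5 alpha-specific genes tested, MATALPHA1 alone was past 2-fold, and the alpha-factor gene MF(ALPHA)1 had too few values in the mutator to be tested. Among the haploid-specific genes RME1, a repressor of meiosis, fell to -1.53 ± 0.06 in the mutator, against -0.00 ± 0.07 in the non-mutator, while FAR1, which arrests the cycle for mating, was at -0.06 ± 0.21 in the mutator and -1.13 ± 0.09 in the non-mutator. Sporulation genes had a median of -0.26 with NDT80, the activator of middle meiosis, at -1.64 ± 0.13 and SPO11, which cuts DNA in meiosis, at -1.10 ± 0.19. MPC54, a partner of SPO21 in the meiotic plaque, was at -4.14, -1.61 and -1.21 in the first round and -1.22 and -3.004 on 2 of the repeat arrays, so its mean of -2.13 ± 0.54 spreads widely.

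Of the 39 reference genes that changed 2-fold or more in the non-mutator, 22 did so in the mutator as well. These are 56.4% of the non-mutator's and 2.10% of the mutator's changed genes. In 15 both strains were lower, in 1 (YPS5, a protease gene) both were higher, and in 6 the mutator was lower and the non-mutator higher. The 15 shared lower genes were MFA1, MFA2, BAR1, STE2, AGA2 and SST2, which act in mating, PHO8, PHO11, PHO12, PHO84, PHO89, SPL2 and VTC3, which act in phosphate supply, and ARR3 and NDJ1. ARR3, an arsenite exporter, averaged -1.05 ± 0.50 in the mutator and -1.51 ± 0.14 in the non-mutator, and NDJ1, a protein of meiotic telomeres, averaged -1.35 ± 0.46 in the mutator and -1.27 ± 0.10 in the non-mutator (n = 3 each). The acid phosphatase PHO11 was at -3.26, -3.50 and -3.27 in the first round and -3.88, -3.77 and -3.86 in the repeat, against -1.99, -2.06 and -1.87 in the non-mutator, and PHO12, a near-identical copy, had similar values. The phosphate transporter PHO84 averaged -2.39 ± 0.15 in the mutator and -1.35 ± 0.09 in the non-mutator. For PHO8, PHO89, SPL2 and VTC3 the difference between the strains did not pass, with adjusted p between 0.077 and 0.37.

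The 6 genes that went opposite ways were HIS3, YPS6, GTT1, ULI1, AMS1 and YGL258W-A. YPS6, a surface protease, was at -1.94, -2.06 and -1.86 in the first round and -1.54, -2.66 and -1.87 in the repeat, against 1.12, 1.10 and 1.01 in the non-mutator. GTT1, a glutathione transferase, averaged -1.42 ± 0.11 in the mutator and 1.04 ± 0.05 in the non-mutator (n = 3 each). AMS1, the vacuolar mannosidase, averaged -1.04 ± 0.28 in the mutator and 1.21 ± 0.07 in the non-mutator. The difference between the strains passed in each of the 6.

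**Figure D5:**
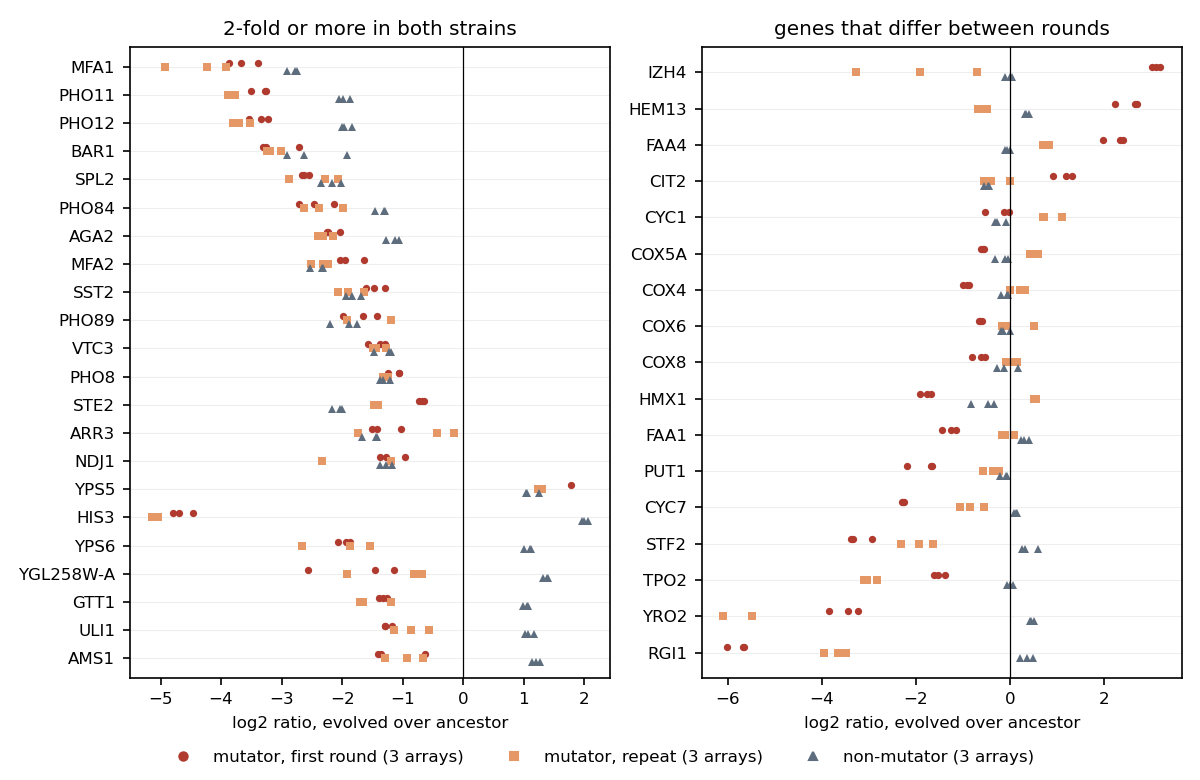
Log2 ratios of evolved strain over ancestor on each array for the 22 genes that changed 2-fold or more in both strains (left) and for genes whose mutator rounds lie apart (right); circles are first-round mutator arrays, squares repeat mutator arrays and triangles non-mutator arrays. On the left HIS3 has the widest gap between the strains, and on the right IZH4 and HEM13 lie above 2 in the first round and below 0 in the repeat.

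The first round and the repeat of the mutator differed for some genes by more than the replicates within a round. Over the 6173 tested probes with all 6 values the median size of the difference between rounds was 0.20, and 256 probes (4.15%) differed by 1 or more. Of these, 206 had no overlap between the rounds. Overlap was counted only among these 256, which were picked for a large difference, and not over all probes. Only IZH4, a membrane protein of zinc homeostasis picked after its values were seen, was past 2-fold in opposite directions, at 3.11, 3.19 and 3.01 in the first round and -3.26, -1.92 and -0.69 in the repeat, against 0.05, -0.00 and -0.12 in the non-mutator. HEM13, coproporphyrinogen oxidase of heme synthesis, was at 2.22, 2.65 and 2.70 in the first round and -0.69, -0.56 and -0.48 in the repeat. HMX1, which degrades heme, was the mirror of it, at -1.77, -1.90 and -1.67 in the first round and 0.52, 0.56 and 0.53 in the repeat.

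Respiratory genes differed between the rounds as well. The cytochrome c oxidase list had medians of -0.63, -0.58 and -0.63 on the first-round arrays and 0.35, 0.31 and 0.03 on the repeat arrays, while COX5B, the subunit of low oxygen, stayed low in both, from -2.43 to -1.81. Cytochrome c itself, CYC1, was at -0.54, -0.14 and -0.01 in the first round and 1.11, 0.70 and 0.71 in the repeat, and its second form CYC7 at -2.27, -2.29 and -2.26 in the first round and -0.54, -0.84 and -1.07 in the repeat. The peroxisomal citrate synthase CIT2 was at 1.32, 0.90 and 1.18 in the first round and -0.01, -0.41 and -0.56 in the repeat. With the round as a random block CIT2, COX4, COX6, COX8, CYC1, HEM13, HMX1, SSA2, SSF2 and URA5 no longer passed, with adjusted p between 0.072 and 0.24, so of the 11 pairs with members in opposite directions those of CIT2, CYC1 and URA5 rest on a member that the block leaves uncalled. What differed between the rounds besides the hybridisation is not given in the labels, and its part in these values was not tested.

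No run of neighbouring genes reached 2-fold in its median. Medians of the nuclear chromosomes lay between -0.23 on chromosome VI and 0.06 on chromosome XIV, and none of 5407 runs of 25 neighbouring genes, which overlap each other, had a median of 1 or more in size, with the furthest at -0.73 and 0.54. Of the 100 nearest neighbours of the 50 highest and lowest genes, 13 changed 2-fold or more the same way and 10 the other way. Over all probes tested, 18.1% changed 2-fold or more, 7.17% higher and 10.9% lower. Whether neighbours changed more often than other genes was not tested. HEM3 at 2.75 and RTN2 at -3.71 are neighbours on chromosome IV. MATALPHA1 at -5.08 overlaps YCR041W at -3.18, and SOF1 at 2.15 lies beside PSR1 at 1.88.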

How the data were processed

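Total RNA had been isolated with a Qiagen RNeasy kit and hybridised to 2-colour arrays of 6947 probes, per the labels' protocols. For each array the authors deposited a linear ratio of its channels per probe, taken here as evolved strain (Cy5) over ancestor (Cy3) from the labels. No source used here names the background correction, normalization or software. Signal intensities were not analysed here, so the number of arrays limits the precision.

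Ratios at the lowest deposited value, 0.01, were set to missing (35 to 132 per mutator array, 2 to 4 per non-mutator array). Log2 ratios were centred on each array's median, and both mutator arrays of an evolved number were averaged. The 6866 probes measured in 2 or more replicates per group were tested, and 81 were not. The test was limma 3.58.1 (lmFit, then eBayes) under R 4.3.3, with 1 mean per strain, 4 residual degrees of freedom and two-sided tests against 0. Calls needed a Benjamini-Hochberg adjusted p under 0.05 and, where stated, a size of 2-fold or more. The fit was tested on simulated data, where the spread shared by both strains called too many unchanged probes and the 2-fold limit left few. With the mutator replicates fitted alone 4484 probes passed at an adjusted p under 0.05, against 5154. Adjusted p-values were then larger, such as 0.00032 against 1.2e-06 for BRN1.

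Names came from the R64 reference table, which held 5840 of the probes, and served for symbols and for which genes are neighbours, without coordinates. Named genes were the 25 highest and 25 lowest with 1 sign on all 6 arrays, for each list up to 4 called members of largest size and up to 2 called at 2-fold against the list's median, all members of lists of 8 or fewer, strain and mating-type markers, paralogue pairs differing by 1 or more, and genes at the lowest ratio on 4 or more mutator arrays. Chosen after their values were seen were the genes changed 2-fold in both strains, BUD22, EGO4, ENP2, ERR2, ERR3, HCA4, HMLALPHA1, HO, IZH4, PSR1 and YCR041W. The members, lists, pairs and naming rule were chosen with earlier results of these data known. A planned description of promoter motifs was not made, since no sequence was used here. Some results are not reported here. Figures were drawn with matplotlib 3.10.9. Same-number replicates of mutator and non-mutator did not deviate together (r = -0.0359 for number 2 and 0.0174 for number 3, across probes), so numbers were not taken as pairs.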

Additional observations from a re-analysis of the deposited data

Results flagged for a closer look

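Among 121 sets of 6 mutator values tested for a sample far from the others, 6 had one, where chance alone gives about 1 in 20 sets. They were URA3, with 1.44 on the repeat array of number 1, SSF1, with 3.09 on the repeat array of number 2, SOF1, with 1.87 on the first-round array of number 1, and GLK1, with -4.28 on the first-round array of number 1. The other 2 were list medians, trehalose at -1.55 on the repeat array of number 1 and the mitochondrial carriers at -0.18 on the first-round array of number 1.

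For 3 lists every first-round array lay on the other side of 0 from every repeat array, a difference that was not tested. The first round minus the repeat was -0.84 for the median of cytochrome c oxidase, 0.33 for glutamate, glutamine and proline and 0.30 for the sphingolipids.

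The change over the ancestor differed between mutator and non-mutator for 4390 probes by the test of the difference. Outside the tested values, 9 probes were at the lowest deposited ratio on 3 or more mutator arrays, and none of these 9 was there on a non-mutator array. ERR1, an enolase-related gene, was at that ratio on 5 mutator arrays and at a log2 ratio of -6.12 on the sixth, against 2.23, 2.09 and 2.22 on the non-mutator arrays. ERR2 and ERR3, which share its name, were not lower, at 0.19 and 0.26 in the mutator and 0.56 and 0.36 in the non-mutator. Whether the probes tell these genes apart was not tested.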

How the results depend on the processing

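The counts of mutator probes called, with and without the 2-fold limit, stayed within 1.5 times under every alternative run: no centring, arrays scaled to 1 spread, the mutator fitted alone, the round as a random block, either round alone, lowest ratios kept, stricter and looser filters on missing values, an adjusted p under 0.01, a replicate block and each replicate left out. The count for mutator minus non-mutator was 2675 with the round as a random block, against 4390. In that fit the 3 non-mutator arrays were a block of their own, so the strain difference lay wholly between blocks. What lowered the count was not tested. With the replicate number as a block 4620 mutator probes and 3476 differences were called, of which 505 rose and 750 fell by 2-fold or more in the mutator, and since only numbers 2 and 3 are shared and did not deviate together, the block is not a pairing. Leaving out 1 replicate in turn gave 4823 to 5022 mutator probes, 1201 to 1319 at 2-fold or more and 3773 to 4545 differences. Of 373 named genes that passed, a few turned sign: on the repeat arrays alone CIT2 was at -0.33, COX4 at 0.17, COX6 at 0.077, COX8 at 0.015, DIT1 at 0.057, HEM13 at -0.58, HMX1 at 0.54 and SSA2 at 0.025, on the first-round arrays alone CYC1 was at -0.23, and with lowest ratios kept IPL1 was at -0.11. The round as a random block ended the call of 17, the repeat arrays alone of 16, and the other alternatives of 8 or fewer each. Of 68 gene list medians, 7 turned sign without centring (largest shift 0.10), 4 on the first-round arrays alone (0.61), 3 on the repeat arrays alone (0.40), 2 without mutator replicate 1 (0.51), 2 with a value needed on all 9 arrays (0.59), and 1 each with lowest ratios kept (0.68), without mutator replicate 2 (0.19) and without mutator replicate 3 (0.21). On the repeat arrays alone cytochrome c oxidase had a median of 0.18, against -0.22 over all arrays, and succinate dehydrogenase and complex III were at -0.18, against -1.11 on the first-round arrays alone.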
